A study of Homo sapiens with 30 samples.

Results

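AZD8186 inhibits the β and δ isoforms of phosphoinositide 3-kinase (PI3K), the lipid kinase that passes signals of the B-cell receptor and of growth factors on to AKT and mTOR. The response that 4 cell lines of diffuse large B-cell lymphoma (DLBCL) had in common was measured over all 30 RNA-sequencing libraries of the series, taken as 15 pairs in which an AZD8186 library met the DMSO library of its own line and hour. OCI-Ly10 and TMD8 stand for activated B-cell-like (ABC) DLBCL, and HT and K422 for germinal center B-cell-like (GCB) DLBCL. Cells received AZD8186 at 0.5 µM, against the solvent DMSO, for 6, 12, 18 or 24 h, with 4 pairs per line but in TMD8, which has 3 and none at 12 h. By the labels the controls received DMSO, although the series text speaks of untreated cells. By the study's methods, the lines carry a murine ecotropic receptor and a tetracycline repressor, in treated and control cells alike. A gene counted as shared where edgeR called it over all 15 pairs (quasi-likelihood test, Benjamini-Hochberg adjusted p under 0.05), its fitted log2 fold change had 1 sign in all 4 lines, and its mean was at least 1 CPM, the counts of a gene scaled to library size, in every line. The mean was taken over the AZD8186 and DMSO libraries of a line together, so a gene could pass through the libraries of either treatment alone. Of 11286 genes tested, 1848 were shared lower and 1941 shared higher under AZD8186.

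When PI3K is active, AKT keeps FOXO transcription factors out of the nucleus, and mTOR complex 1 promotes the making of ribosomes, proteins, nucleotides and lipids. FOXO factors activate genes that slow the cell cycle, such as the CDK inhibitor gene CDKN1B. MYC drives many genes of ribosome assembly and metabolism and is a frequent oncogene of lymphoma.

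Total expected counts ranged from 15820230 to 23579029 in AZD8186 libraries and from 16854137 to 22190876 in DMSO libraries. Ribosomal RNA took 1.24% to 4.35% of the counts under AZD8186, the most in TMD8 at 6 h, against 0.690% to 3.49% under DMSO. The 7 defining B-cell genes, such as MS4A1, CD79A and CD37, were present in every line and summed to between 2684 and 4813 CPM in AZD8186 libraries, against 2215 to 3247 CPM in DMSO libraries. Of markers of other cell types, those over 10 CPM were DCN (mean 436 CPM), CD3G (84.0 CPM) and CD3D (27.4 CPM) in K422 and CD33 (44.0 CPM) in HT. There is 1 library per line, treatment and hour, and separate cultures are stated nowhere, so the spread behind each p-value is that between libraries and may be technical. CPM are shares of a library, and fewer cells of a kind cannot be told apart from less RNA per cell.

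AZD8186 shifted many genes in the same direction in both subtypes, mostly by small amounts. Over all 15 pairs 2526 genes were lower (22.4% of the genes tested) and 3027 were higher (26.8%), with a median log2 fold change of 0.022 over all genes. On log2(TPM + 1) with limma, 4377 genes were lower and 1322 higher, around a median of -0.082 over all genes, so the share of calls that were lower was 76.8% there, against 45.5% in edgeR's fit. Of the lower genes 2260, and of the higher genes 2442, had at least 1 CPM in every line. Of these 81.8% and 79.5% had 1 sign in all 4 lines, against 47.0% of all 8956 genes measured in every line. A call over all pairs itself favors genes with 1 sign in the lines, and the 8956 genes include the called ones. These shares are therefore a description. The median log2 fold change was -0.24 for the shared lower and 0.28 for the shared higher genes. A change of at least 2-fold was reached by 5 lower and 36 higher genes. In 509 lower and 421 higher genes the direction held in each of the 15 pairs, and 199 and 136 were called in each of the 4 lines. With 1 mean difference per line and the 4 lines as replicates, limma called 0 genes, with 1504 lower and 2004 higher at an unadjusted p under 0.05 and a smallest adjusted p of 0.0685. Without the TMD8 pair at 6 h 1734 genes were shared lower and 1780 shared higher. The genes that were at least 2-fold higher in every line were PECAM1, TNFRSF17 and YPEL3, and 0 genes were 2-fold lower in every line. PECAM1 met the limit of 1 CPM in TMD8 and HT only through its AZD8186 libraries.

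PTPN6, which encodes SHP-1, a phosphatase that dampens B-cell receptor signaling, had the largest change in its weakest line among shared lower genes with 1 direction in all 15 pairs and a mean of at least 5 CPM in every line. From 6 to 24 h it had 160.1, 316, 408 and 350.4 CPM under AZD8186, against 583, 749.6, 906 and 853 CPM under DMSO in OCI-Ly10. In TMD8 at 6, 18 and 24 h it had 129, 393 and 369 CPM under AZD8186, against 544, 485 and 522 CPM under DMSO. Treated libraries lay below all DMSO libraries in both ABC lines, and lowest at 6 h. In HT it had 37.0, 39.5, 60.3 and 69.1 CPM under AZD8186, against 106, 75.9, 106 and 107 CPM under DMSO. In K422 it had 94.8, 97.5, 117 and 137 CPM under AZD8186, against 472, 455, 415 and 382 CPM under DMSO. The GCB lines did not overlap either, and K422 had the largest fold. The log2 fold change over all pairs was -1.35 (SE 0.15, adjusted p = 3.66e-06), and the change was smaller in late (18 and 24 h) than in early (6 and 12 h) pairs, with a difference of 0.71 on the log2 scale (adjusted p = 0.0282).

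TFRC, the transferrin receptor that takes up iron, fell by a more even amount. In OCI-Ly10 it had 565, 575, 534 and 575 CPM under AZD8186, against 693, 957, 821 and 802 CPM under DMSO. In TMD8 it had 382, 482 and 484 CPM under AZD8186, against 758, 646 and 611 CPM under DMSO. No AZD8186 library of these lines reached the lowest DMSO library of its line. In HT it had 272, 249.5, 252 and 252 CPM under AZD8186, against 341, 383, 384 and 384 CPM under DMSO. In K422 it had 321, 276, 323 and 312 CPM under AZD8186, against 507, 513, 638 and 649.9 CPM under DMSO. The groups were apart in these lines too. Its log2 fold change was -0.64 (SE 0.061, adjusted p = 8.93e-07), and the test of a difference between lines gave an adjusted p of 0.125.

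YPEL3, a growth-restraining member of the yippee-like family, was first among the shared higher genes under the same limits. In OCI-Ly10 it had 6.59, 8.41, 8.80 and 8.27 CPM under AZD8186, against 4.32, 4.29, 2.54 and 4.34 CPM under DMSO. In TMD8 it had 22.3, 15.6 and 11.2 CPM under AZD8186, against 8.35, 8.64 and 6.47 CPM under DMSO. All treated libraries were above the DMSO libraries of their line. In HT it had 25, 29.7, 31.6 and 36.1 CPM under AZD8186, against 10.1, 13.3, 13.3 and 11.4 CPM under DMSO. In K422 it had 36.0, 62.5, 57.8 and 70.7 CPM under AZD8186, against 14.0, 13.4, 9.91 and 8.46 CPM under DMSO. The change over all pairs was 1.5 (SE 0.16, adjusted p = 3.31e-06), and the largest was that of K422, with 2.29.

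PECAM1 (CD31), an adhesion molecule with inhibitory motifs found on endothelium and some leukocytes, was near 0 under DMSO. It was named after its values were seen. In OCI-Ly10 it had 3.30, 4.85, 5.66 and 5.87 CPM under AZD8186, against 1.70, 1.62, 0.663 and 0.896 CPM under DMSO. In TMD8 it had 2.53, 4.95 and 2.05 CPM under AZD8186, against 0.690, 0.393 and 0.422 CPM under DMSO. The level was low, but the groups did not overlap. In HT it had 1.84, 3.80, 6.41 and 7.23 CPM under AZD8186, against 0.0522, 0.0502, 0.233 and 0.104 CPM under DMSO. In K422 it had 6.57, 12.6, 16.7 and 30.7 CPM under AZD8186, against 1.12, 0.946, 1.86 and 1.28 CPM under DMSO. In both GCB lines the AZD8186 libraries at 24 h were the highest. The log2 fold change was 3.16 (SE 0.29, adjusted p = 6.56e-07). PECAM1 is on the list of stromal markers, whose endothelial members VWF and CDH5 had a mean of at most 0.0340 CPM in any line. TNFRSF17 (BCMA), a survival receptor of late B cells, also named after its values were seen, had 3.10 to 22.4 CPM under AZD8186 (median 9.88), against 1.31 to 7.35 CPM under DMSO (median 3.68). Its log2 fold change was 1.41 (SE 0.13, adjusted p = 5.77e-07), between 1.11 in HT and 1.58 in TMD8. CD1C, a lipid-presenting molecule chosen in the same way, had 1.03 to 29.6 CPM under AZD8186 (median 4.89), against 1.73 to 104 CPM under DMSO (median 13.2) and a log2 change of -1.47 (SE 0.17, adjusted p = 4.39e-06).

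**Figure D1:**
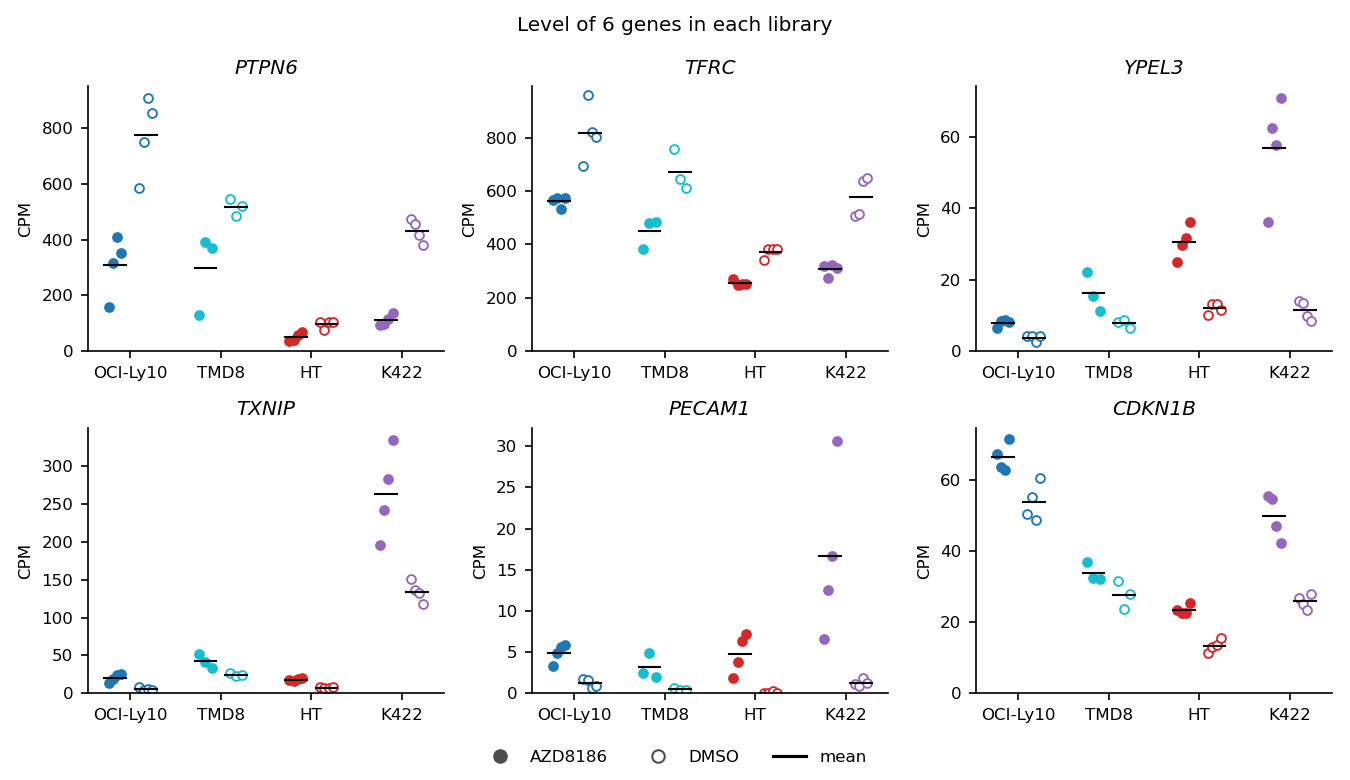
Level of 6 genes in CPM (y axes, from 0) in each library of the 4 cell lines (x axes), AZD8186 (filled) left of DMSO (open), with lines at the mean. In each gene the AZD8186 libraries were apart from the DMSO libraries of every line, although levels differed between lines, as for PTPN6, which under DMSO had 906 CPM in OCI-Ly10 and 106 CPM in HT at 18 h.

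The genes that changed most in their weakest line were ranked among called genes with 1 direction in all 15 pairs and a mean of at least 5 CPM in every line, 499 lower and 354 higher genes, and the first 12 per direction were taken. These values chose the genes and are a description. The mean covers AZD8186 and DMSO libraries together, so some higher genes reached 5 CPM in a line only through their AZD8186 libraries. TCL1A in K422 had 0.494 to 1.49 CPM under DMSO, against 1.93 to 44.4 CPM under AZD8186. YPEL3 in OCI-Ly10 had 2.54 to 4.34 CPM under DMSO, against 6.6 to 8.8 CPM under AZD8186. Rank 12 of the lower genes was PPAN, with -0.47 in its weakest line, and rank 13 was YRDC, with -0.46. Of the higher genes rank 12 was TXNIP, with 0.76, and rank 13 was FGD3, with 0.75.

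Among the lower genes DUSP2, a phosphatase of MAP kinases, had 5.93 to 97.0 CPM under AZD8186 (median 15.1), against 17.9 to 263 CPM under DMSO (median 23.5). On the log2 scale, used for all changes that follow, this was -1.26 (SE 0.13, adjusted p = 2.36e-06), with no overlap of the groups in any line. SLC1A5, a glutamine transporter, had 129.9 to 524 CPM under AZD8186 (median 208), against 273 to 673 CPM under DMSO (median 321), with -0.74 (SE 0.083, adjusted p = 4.39e-06). The metal ion transporters SLC39A14 (-0.69) and SLC39A8 (-0.70) fell as well, as did SLC17A9 (-1.04), which loads nucleotides into vesicles. POLR3G, a subunit of RNA polymerase III, had -0.69 (SE 0.064, adjusted p = 7.66e-07), and PPAN, a ribosome assembly factor, -0.72. The ubiquitin ligase SIAH2 had -0.68 and the pseudokinase PRAG1 -0.71. HSPA1B, an inducible HSP70 chaperone, had -0.79, and its reads may be shared with the near-identical HSPA1A. In 9 of the 12 genes the groups did not overlap in any line. The choice of genes favors this, and the share over all genes tested was not counted. The change differed between lines in 1 of the 12, SLC17A9, which was lowest in K422 (-1.67) and nearest to 0 in OCI-Ly10 (-0.63).

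Among the higher genes TXNIP, an arrestin that limits glucose uptake, had 14.2 to 333 CPM under AZD8186 (median 25.8), against 4.39 to 150.3 CPM under DMSO (median 8.73), with 1.17 (SE 0.13, adjusted p = 5.26e-06). HBP1, a transcriptional repressor that slows entry into S phase, had 12.4 to 39.7 CPM under AZD8186 (median 18.9), against 6.85 to 12.1 CPM under DMSO (median 8.58), with 1.31 (SE 0.13, adjusted p = 1.51e-06). All AZD8186 libraries exceeded the highest DMSO library for HBP1, across lines. KLHL24, an adaptor of a ubiquitin ligase, had 1.71 (SE 0.21, adjusted p = 7.59e-06), and the ubiquitin ligase RNF144B 1.42. TCL1A, which binds and activates AKT, had 1.59 (SE 0.29, adjusted p = 0.000263), with log2 ratios of the pairs between 0.53 and 6.21, the highest in K422 at 24 h, where it had 44.4 CPM under AZD8186 and 0.494 CPM under DMSO. YPEL5 had 1.21, the kinase DYRK1B, known from quiescent cells, 1.26, METTL7A 1.37, PBXIP1 1.14 and KIAA0040 1.14 (SE 0.082, adjusted p = 2.47e-07). OAS1, an interferon-induced sensor of double-stranded RNA, had 1.13. In 10 of the 12 genes the groups did not overlap in any line, which the choice of genes favors here too. The change differed between lines in 7 of the 12, and K422 had the largest change in 9 higher and 7 lower genes.

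**Figure D2:**
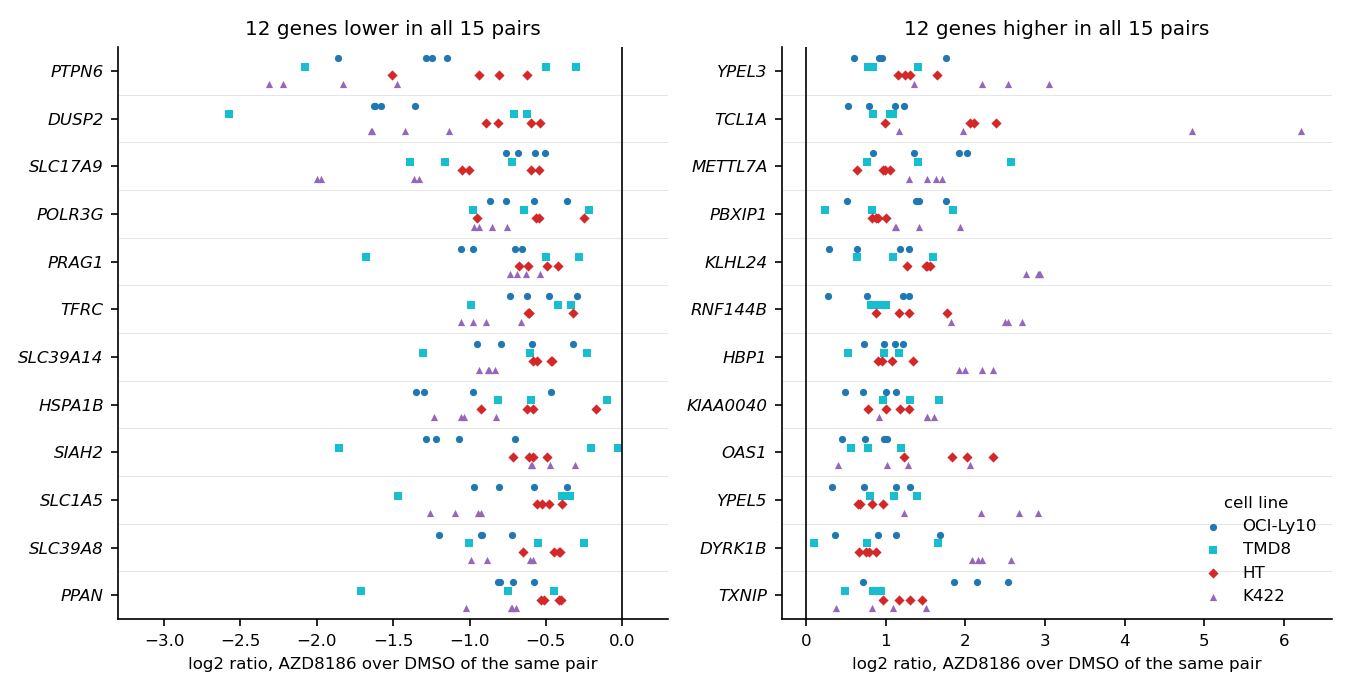
Log2 ratio of AZD8186 over DMSO in each of the 15 pairs (x axis) for the 12 genes per direction that changed most in their weakest line (y axis), with the cell line as color and shape. All points lie on 1 side of 0, which the choice of genes required, and the pair of TMD8 at 6 h gave the lowest ratio in 7 of the 12 lower genes.

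Promoter sequences are shown for genes whose letters hold a motif that FOXO factors or MYC are known to bind. They are from RefSeq (GRCh38.p14), out of windows of 250 bases before to 50 bases after a gene's start, and the motif, on the strand of the gene, is in capitals. The FOXO element GTAAACA, searched on both strands, stood in 3 of the 12 promoters of the higher genes and in 0 of the 8 of the lower genes that were in the table.
HBP1 (chromosome 7, chr7:107168803-107168862, plus strand): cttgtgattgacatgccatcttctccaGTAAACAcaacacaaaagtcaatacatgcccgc
TXNIP (chromosome 1, chr1:145996671-145996730, minus strand): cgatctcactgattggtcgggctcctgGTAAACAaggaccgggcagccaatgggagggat
It also stood before PIK3CA, in the reverse direction, and BCL2L11, both described below.
PIK3CA (chromosome 3, chr3:179148181-179148240, plus strand): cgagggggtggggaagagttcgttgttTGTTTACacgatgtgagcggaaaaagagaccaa
BCL2L11 (chromosome 2, chr2:111120664-111120723, plus strand): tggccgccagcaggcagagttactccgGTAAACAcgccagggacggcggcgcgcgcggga
The E-box CACGTG, which MYC with its partner MAX and other factors bind, stood in 2 of the 8 promoters of the lower and 1 of the 12 of the higher genes.
DUSP2 (chromosome 2, chr2:96145521-96145580, minus strand): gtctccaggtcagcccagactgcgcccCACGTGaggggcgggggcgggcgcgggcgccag
SIAH2 (chromosome 3, chr3:150763174-150763233, minus strand): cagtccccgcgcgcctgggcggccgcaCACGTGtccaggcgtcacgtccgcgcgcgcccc
The metabolic genes LDHA and SRM and the transcription factor gene ATF4, described below, hold it too.
LDHA (chromosome 11, chr11:18394449-18394508, plus strand): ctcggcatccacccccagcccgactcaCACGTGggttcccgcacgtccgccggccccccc
SRM (chromosome 1, chr1:11060185-11060244, minus strand): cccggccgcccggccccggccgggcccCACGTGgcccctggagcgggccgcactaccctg
ATF4 (chromosome 22, chr22:39520450-39520509, plus strand): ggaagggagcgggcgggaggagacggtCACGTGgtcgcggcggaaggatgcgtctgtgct

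Over all genes, GTAAACA stood in 3.59% of 1616 promoters of shared higher genes and 2.03% of 1580 of shared lower genes, against 1.84% of 4622 of genes not called and 3.41% of all 27305. For shared higher genes with 1 direction in all 15 pairs the share was 5.73% (20 of 349). CACGTG stood in 13.7% of shared lower and 10.0% of shared higher genes, against 10.4% of genes not called and 7.43% of all promoters. The cyclic AMP response element TGACGTCA was in 4.30% of shared lower and 2.48% of shared higher genes, against 3.57% of genes not called and 1.98% of all. CCAAT was in 37.5% of shared lower and 40.7% of shared higher genes, against 36.6% and 35.7%, and TGATGNAA, the amino acid response element, in 2.09% and 1.11%, against 1.60% and 3.67%. No test was made of these shares, and a match of letters is a description and not a bound site.

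To read the direction in libraries that had not chosen the genes, the same rule was applied to 3 lines and the line left out, with DMSO libraries of its own, was fitted alone. In K422 92.5% of 1689 genes were lower and 73.7% called so, against 24.6% of all genes, and 91.0% of 1728 genes were higher and 60.9% called so, against 22.5%. In HT 89.7% of 1867 genes were lower and 61.8% called so, against 19.6% of all genes, and 85.3% of 1991 genes were higher and 45.1% called so, against 18.7%. In each GCB line, genes chosen without that line were thus called in their direction more often than genes at large. The other line of the same subtype was always among the 3 lines that chose. In OCI-Ly10 89.8% of 1927 genes were lower and 42.0% called so, against 14.1% of all genes, and 90.4% of 1842 genes were higher and 41.4% called so, against 14.3%. In TMD8 87.3% of 2133 genes were lower and 1.78% called so, against 0.857% of all genes, and 84.6% of 2074 genes were higher and 5.21% called so, against 2.15%. TMD8 had few calls in any direction with its 3 pairs. Chosen genes called in the opposite direction numbered 15 of the lower genes in OCI-Ly10, 11 of the higher genes in OCI-Ly10, 3 of the lower genes in TMD8, 1 of the higher genes in TMD8, 25 of the lower genes in HT, 31 of the higher genes in HT, 17 of the lower genes in K422 and 37 of the higher genes in K422. Over all genes of a line fitted alone, 48.7% to 51.3% lay on either side of 0.

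**Figure D3:**
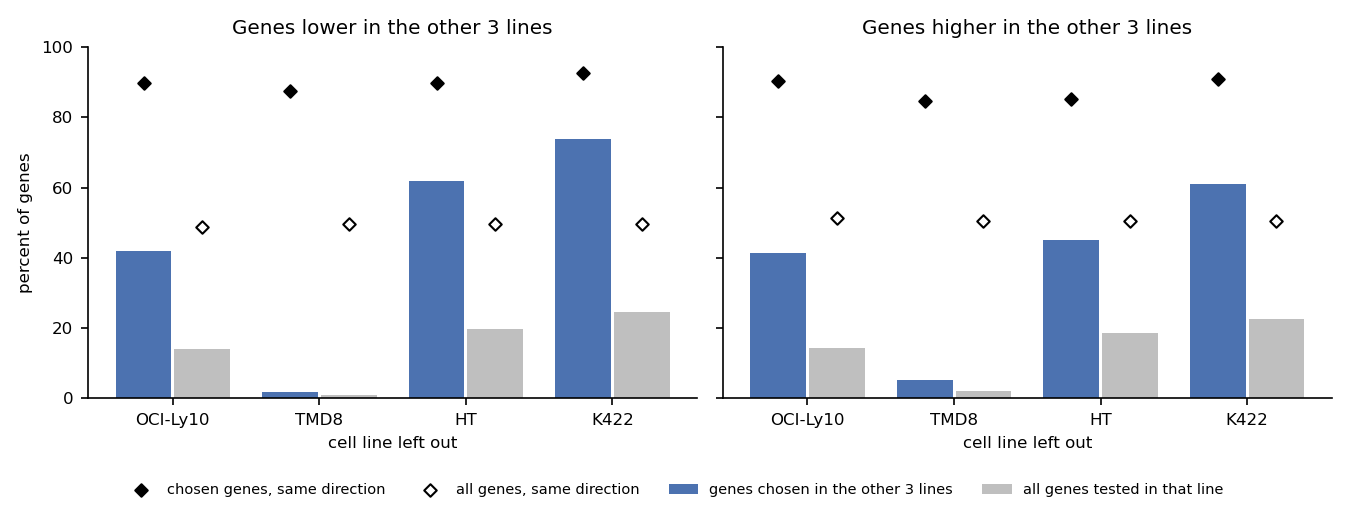
Percent of genes (y axis) in the line left out (x axis) for genes chosen in the other 3 lines, lower at the left and higher at the right, with bars for the genes called in the same direction beside all genes called so, and diamonds for the same direction, filled for chosen and open for all genes. The chosen genes kept their direction in 84.6% to 92.5% of cases, and few were called in TMD8.

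Across 8956 genes measured in every line, the log2 fold changes of 2 lines had a Pearson's r of 0.70 for HT and K422 and 0.65 for OCI-Ly10 and TMD8. Between the subtypes r was 0.33 for TMD8 and HT, 0.38 for TMD8 and K422, 0.43 for OCI-Ly10 and HT and 0.48 for OCI-Ly10 and K422. The points are genes, which share their libraries and are not independent replicates.

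Targets of FOXO factors were mostly higher. Of 37 tested, 28 were higher and 1 was lower, with 20 shared higher. Their median log2 fold change was 0.48, against 0.022 over all genes, and the median of the pair ratios was above 0 in all 15 pairs, from 0.17 in TMD8 at 24 h to 0.92 in K422 at 18 h. CCNG2, an unusual cyclin linked to cell cycle arrest, had 6.96 to 78.7 CPM under AZD8186 (median 40.5), against 4.83 to 36.3 CPM under DMSO (median 11.4), with 1.19 (SE 0.12, adjusted p = 1.64e-06). PIK3IP1, an inhibitor of PI3K, had 1.74 (SE 0.17, adjusted p = 1.13e-06), but a mean of 0.256 CPM in TMD8, where the fit gave -0.43, so it is no shared gene. GADD45A, which halts the cycle after DNA damage, had 1.33, with 2.63 in K422 and 0.29 in TMD8. The lower member was SOD2, the mitochondrial superoxide dismutase, with -0.35 (adjusted p = 0.000193). GADD45A and SOD2 were named after their values were seen.

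Of 14 D cyclins, G1 kinases and CDK inhibitors 6 were higher, all of them shared, and 2 lower. CDKN1B, the p27 inhibitor of CDK2, had in OCI-Ly10 67.3, 63.7, 62.9 and 71.6 CPM under AZD8186, against 50.5, 55.2, 48.8 and 60.5 CPM under DMSO. In TMD8 it had 37.0, 32.5 and 32.1 CPM under AZD8186, against 31.5, 23.7 and 28 CPM under DMSO. The AZD8186 libraries were the higher ones in both. In HT it had 23.4, 22.6, 22.5 and 25.4 CPM under AZD8186, against 11.4, 13.0, 13.5 and 15.7 CPM under DMSO. In K422 it had 55.6, 54.8, 47.2 and 42.2 CPM under AZD8186, against 26.8, 25.2, 23.6 and 27.9 CPM under DMSO. The groups were apart in all lines, with a change of 0.60 (SE 0.08, adjusted p = 1.53e-05), of 0.81 in HT and 0.94 in K422, against 0.31 in OCI-Ly10 and 0.29 in TMD8 (adjusted p of the difference between lines 0.000653). CDKN2C, the p18 inhibitor of CDK4 and CDK6, had 0.65 (SE 0.093, adjusted p = 2.88e-05), and CDK4 itself, named after its value was seen, -0.27 (adjusted p = 0.000434).

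Genes of DNA replication and mitosis were less uniform. Of 41 G1/S and replication genes 17 were lower and 0 higher, and 10 were shared lower. Without the pairs at 18 h 11 were lower, and without those at 6 h 28. The median was -0.54 in K422, -0.27 in OCI-Ly10, -0.055 in TMD8 and 0.054 in HT. CDC25A, the phosphatase that activates CDK2, had 35.9 to 69.1 CPM under AZD8186 (median 48.4), against 49.1 to 109.6 CPM under DMSO (median 78.6), with -0.60 (SE 0.088, adjusted p = 3.44e-05). RFC3 (-0.26) and MCM10 (-0.45), which load and start the replication machinery, and CDC6 (-0.47), a licensing factor named after its value was seen, were lower too. Of 34 G2/M genes 9 were higher and 2 lower. The higher share was near the 26.8% of all genes tested, and the lower share was under their 22.4%. CDC25C had 0.50, NEK2 0.40 and CCNB2, a mitotic cyclin that is not a shared gene, 0.39. Without the pairs at 24 h 15 G2/M genes were higher, without those at 6 h 5, and on log2(TPM + 1) 3, with a median of -0.079 there.

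Targets of MYC and factors of ribosome assembly were lower in every line. Of 68 MYC targets 57 were lower and 0 higher, 54 of them shared, with a median of -0.34. GRWD1, a chaperone of histones and ribosomal proteins, had 76.6 to 401 CPM under AZD8186 (median 146), against 116 to 602 CPM under DMSO (median 179), with -0.36 (SE 0.043, adjusted p = 7.36e-06) and no overlap in any line. Of 75 further ribosome biogenesis factors 67 were lower and 3 higher, 64 and 2 of them shared, with a median of -0.34. DDX21, a helicase of ribosomal RNA synthesis, had 212 to 717 CPM under AZD8186 (median 297), against 325 to 955 CPM under DMSO (median 508), with -0.60 (SE 0.068, adjusted p = 4.39e-06). LTV1, which takes part in export of the small subunit, had -0.44 and EMG1, a ribosomal RNA methyltransferase, -0.54. The medians of both lists were below 0 in all 15 pairs, nearest to 0 in TMD8 at 24 h (-0.079 and -0.031). The higher factors, named after their values were seen, were TAF1D (0.43) and POLR1D (0.27), of the RNA polymerase I machinery, and NSA2 (0.12), which had -0.015 on log2(TPM + 1) and no call without the pairs at 18 h.

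MYC itself did not pass the test. It had 63.0 to 253 CPM under AZD8186 (median 168), against 148 to 273 CPM under DMSO (median 177), with -0.19 (SE 0.083, adjusted p = 0.0648), and was lower in 11 of 15 pairs. The lowest ratio was that of TMD8 at 6 h, with -1.36. All pairs of HT (-0.33 to -0.20) and K422 (-0.32 to -0.072) were below 0. OCI-Ly10 lay between -0.054 and 0.041, and TMD8 had 0.18 at 18 h and 0.15 at 24 h. Without the TMD8 pair at 6, 18 or 24 h MYC was called, with -0.11, -0.22 and -0.22 (adjusted p = 0.0452, 0.0421 and 0.0407), and on log2(TPM + 1) it had -0.32 (adjusted p = 0.00189). With equal weight of the 4 lines MYC was called as well, with -0.20 (adjusted p = 0.0486).

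Genes for cytosolic ribosomal proteins went the other way. Of 79, 76 were higher and 0 lower, 72 of them shared, with a median of 0.27, and of 0.14 on log2(TPM + 1). RPS24 had 0.30 (SE 0.049, adjusted p = 7.49e-05), RPS2 0.38 (SE 0.061, adjusted p = 8.05e-05) and RPL12 0.39 (SE 0.061, adjusted p = 6.15e-05). The median of the pair ratios lay between -0.012 in OCI-Ly10 at 6 h and 0.56 in K422 at 24 h. Reads of these genes may be shared with their many pseudogenes. Of 42 translation factors 19 were lower and 14 higher. The initiation factors EIF3B (-0.38), EIF4G2 (-0.32), EIF1AX (-0.33) and EIF2S1 (-0.46) were lower. The elongation factors EEF2 (0.47) and EEF1A1 (0.37) and the EIF3 subunit EIF3F (0.42) were higher, and with EIF2S1 these were named after their values were seen. EEF1A1 had 12840.0 to 31986 CPM under AZD8186 (median 21046), against 10505 to 25574 CPM under DMSO (median 16289).

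**Figure D4:**
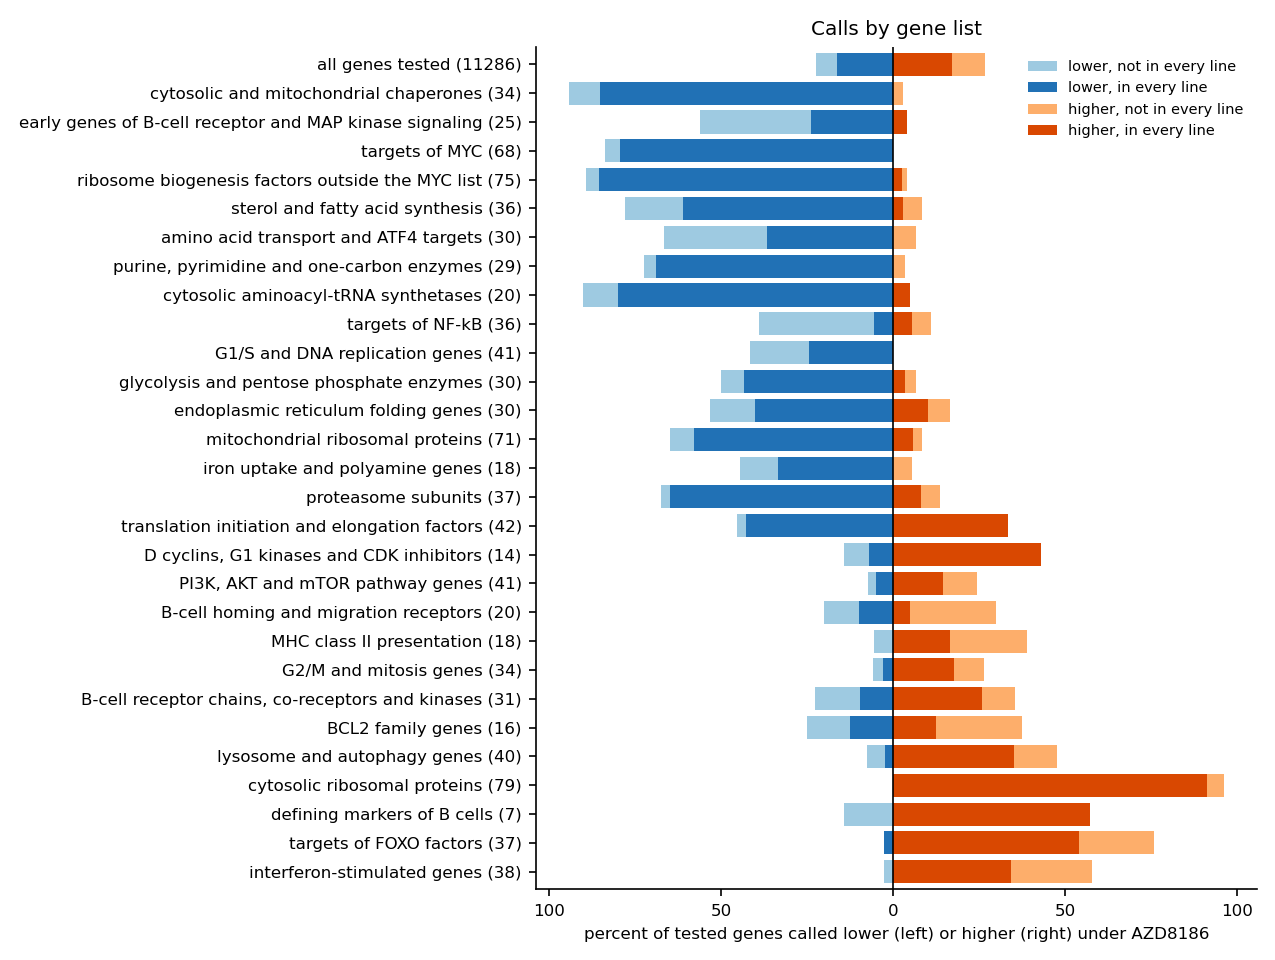
Percent of tested genes called lower (left of 0) or higher (right of 0) under AZD8186 in each gene list (y axis, with the number tested), dark where the gene is shared by all 4 lines and light where it is not. All genes tested had 22.4% lower and 26.8% higher, while 32 of 34 chaperones were lower and 76 of 79 ribosomal protein genes higher.

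Lists of biosynthesis were lower as well. Of 36 sterol and fatty acid synthesis genes 28 were lower and 3 higher, 22 shared lower, with a median of -0.30. FASN, the fatty acid synthase, had 189 to 860.2 CPM under AZD8186 (median 435), against 401 to 1412 CPM under DMSO (median 569.5), with -0.62 (SE 0.074, adjusted p = 7.03e-06). HSD17B7 (-0.43) and CYP51A1 (-0.26), enzymes of cholesterol synthesis, were lower in all 15 pairs. SCD, the fatty acid desaturase, had -0.54, with -1.18 in K422 and -0.15 in TMD8. SREBF1, a transcription factor of lipid synthesis, had -0.58 (adjusted p = 0.000415), and its relative SREBF2 0.12 (adjusted p = 0.0198), which was -0.008 on log2(TPM + 1) and lost its call there and without the pairs at 18 or 24 h. SCD, SREBF1 and SREBF2 were named after their values were seen.

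Of 29 purine, pyrimidine and one-carbon enzymes 21 were lower and 1 was higher, with 20 shared lower and a median of -0.25. IMPDH1, of guanine nucleotide synthesis, had -0.50 (SE 0.054, adjusted p = 3.04e-06), CTPS1, which makes CTP, -0.44 and PFAS, of purine synthesis, -0.37. The higher member was IMPDH2, which catalyzes the same reaction as IMPDH1, with 0.22 (adjusted p = 0.00179), named after its value was seen and without a call on log2(TPM + 1) (0.091). Of 30 ATF4 targets and amino acid carriers 20 were lower and 2 higher, with 11 shared lower and a median of -0.26. ATF4, the transcription factor of the amino acid response, had 64.6 to 359 CPM under AZD8186 (median 190.1), against 87.1 to 441 CPM under DMSO (median 224), with -0.38 (SE 0.046, adjusted p = 7.82e-06). SLC7A1, a carrier of cationic amino acids, had -0.57. Of 20 aminoacyl-tRNA synthetases 18 were lower (median -0.23), such as YARS (-0.46), MARS (-0.36) and GARS (-0.35), and 1 was higher, QARS, with 0.29 (SE 0.041, adjusted p = 2.69e-05), named after its value was seen.

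Of 34 chaperones 32 were lower and 1 was higher, with 29 shared lower and a median of -0.37. FKBP4, a partner of HSP90, had 268 to 643 CPM under AZD8186 (median 355), against 482 to 824 CPM under DMSO (median 602), with -0.58 (SE 0.067, adjusted p = 5.47e-06) and no overlap in any line. DNAJB1, a partner of HSP70, had -0.56. HSPA8 (-0.61), the constitutive HSP70, and HSP90AA1 (-0.56) were named after their values were seen. The higher member, named in the same way, was FKBP5, a target of the glucocorticoid receptor, with 0.44 (SE 0.18, adjusted p = 0.0476), with 0.89 in K422, 0.042 in OCI-Ly10 and 0.018 in TMD8, and a mean of 0.487 CPM in HT. Its call was lost without the HT pair at 6, 12 or 18 h or any 1 K422 pair, also on log2(TPM + 1) and without any 1 time point (adjusted p between 0.0508 and 0.108 without 1 pair). Of 30 folding genes of the endoplasmic reticulum 16 were lower and 5 higher (median -0.17), with HSPA5 (-0.68), MANF (-0.58) and DNAJB11 (-0.42) among the lower.

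Of 30 glycolysis and pentose phosphate enzymes 15 were lower and 2 higher (median -0.19). LDHA, lactate dehydrogenase, had 884 to 2265 CPM under AZD8186 (median 1341), against 1282 to 2591 CPM under DMSO (median 1827), with -0.50 (SE 0.068, adjusted p = 1.92e-05), and the hexokinases HK2 and HK1 had -0.56 and -0.32. Of 37 proteasome genes 25 were lower and 5 higher (median -0.11), with PSME3 (-0.39), PSMD11 (-0.34) and PSMD12 (-0.37) lower in all 15 pairs. Without the pairs at 18 h 16 proteasome genes were lower and 1 higher. Of 71 mitochondrial ribosomal proteins 46 were lower and 6 higher (median -0.16). MRPS7 (-0.28), MRPS30 (-0.28) and MRPS2 (-0.23) were lower in all 15 pairs. On log2(TPM + 1) 63 of these were lower. Of 18 iron uptake and polyamine genes 8 were lower and 1 was higher (median -0.12), with AMD1 (-0.55) and SRM (-0.45), enzymes of polyamine synthesis, lower.

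Of 40 lysosome and autophagy genes 19 were higher and 3 lower, with a median of 0.15, while on log2(TPM + 1) 10 were higher and 8 lower, with a median of 0.018. NPC2, which carries cholesterol out of lysosomes, had 12.0 to 51.4 CPM under AZD8186 (median 40.3), against 7.80 to 42.3 CPM under DMSO (median 27.1), with 0.48 (SE 0.065, adjusted p = 1.88e-05). The autophagy genes GABARAP and ATG2A had 0.47 and 0.38. Of 38 interferon-stimulated genes 22 were higher and 1 was lower, with 13 shared higher and a median of 0.50. Their median ratio lay between 0.046 in TMD8 at 6 h and 1.95 in K422 at 24 h. STAT2, a transcription factor of the interferon response, had 10.5 to 49.6 CPM under AZD8186 (median 22.6), against 5.43 to 25.8 CPM under DMSO (median 12.3), with 0.83 (SE 0.091, adjusted p = 3.66e-06), and SAMD9 had 0.66. The lower gene, named after its value was seen, was GBP2, at -0.68 (SE 0.23, adjusted p = 0.0248) and a mean of at most 0.0307 CPM in HT and K422. With equal weight of the 4 lines it had 0.26, without a call.

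**Figure D5:**
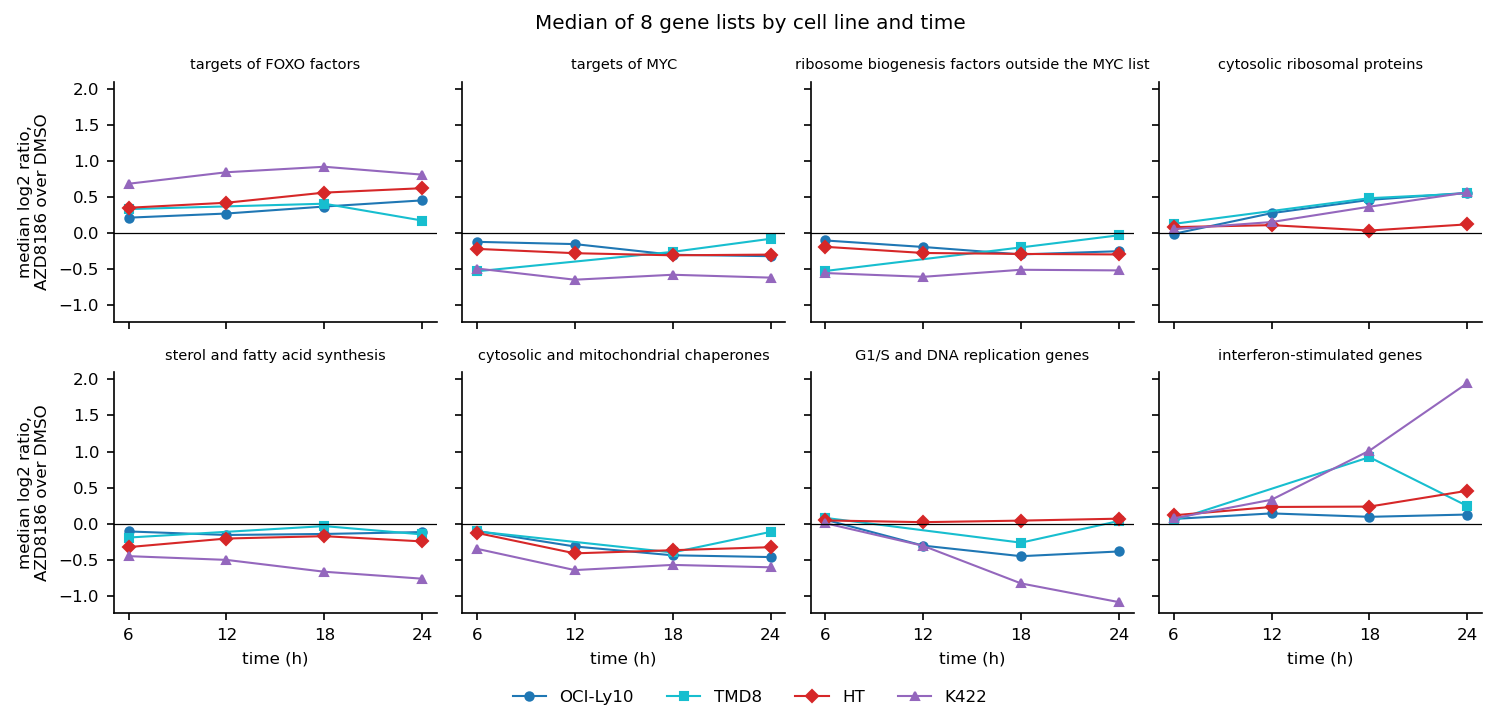
Median log2 ratio of AZD8186 over DMSO (y axes) of 8 gene lists by time in hours (x axes), 1 line per cell line, with no pair of TMD8 at 12 h. FOXO targets lay above 0 and MYC targets, ribosome biogenesis, sterol synthesis and chaperones below 0 in all 15 pairs, and the interferon list reached 1.95 in K422 at 24 h.

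B-cell genes were mixed. Of the 7 defining markers 4 were higher, all of them shared, among them CD79B (0.88), CD37 (0.79) and PAX5 (0.33), and 1 was lower. CD37, a tetraspanin, had 515 to 1787 CPM under AZD8186 (median 1320.4), against 390.2 to 867 CPM under DMSO (median 658). Of 31 B-cell receptor chains, co-receptors and kinases 11 were higher and 7 lower. This lower share was near the 22.4% of all genes tested, and the higher share was over their 26.8%. BLK, a SRC family kinase, had 0.54 (SE 0.057, adjusted p = 2.76e-06), with 0.51 in OCI-Ly10, 0.51 in TMD8, 0.57 in HT and 0.54 in K422. Of 20 homing receptors and their regulators 6 were higher and 4 lower, and without the TMD8 pair at 6 h 3 and 3. The counts over all pairs were near the shares of all genes tested, 26.8% higher and 22.4% lower. The integrin genes ITGA4 (-0.45) and ITGB2 (-0.72) were lower in all 15 pairs. KLF2, a transcription factor of S1PR1, had 0.75 (adjusted p = 4.1e-05) and a count of 0 in HT, and no call with equal weight of the 4 lines. Of 18 genes of MHC class II presentation 7 were higher and 1 was lower (IFI30, -0.45, named after its value was seen), with HLA-DPB1 at 0.35, RFX5 at 0.25 and CTSS, which was not shared, at 0.44. RFX5 had 0.12 without a call on log2(TPM + 1) (adjusted p = 0.0687).

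Of 9 genes high in GCB lymphoma 4 were higher and 1 lower. MME (0.87), MYBL1 (0.96) and STAP1 (0.62) were among the higher, and STAP1 was shared. In OCI-Ly10 and TMD8 the mean of MME was 1.52 and 0.0534 CPM, and that of MYBL1 0.745 and 0.937 CPM. Of 12 genes high in ABC lymphoma 6 were higher and 2 lower. PIM1 (0.50), IL16 (0.75) and BLNK (0.41) were among the higher, and IL16 had a mean of 0.159 CPM in HT. The lower genes of both lists are not named here. On log2(TPM + 1) 4 of the ABC genes were higher and 5 lower, and of the GCB genes 4 and 2. Of 4 T-cell and NK-cell markers tested 2 were higher, CD3E (0.77, with at most 1.52 CPM in any library) and CD3G (0.37), and of the 2 stromal markers tested DCN had 0.66, with up to 571 CPM under AZD8186 and up to 363 CPM under DMSO. CD3E, CD3G and DCN, named after their values were seen, lost their calls with equal weight of the 4 lines (adjusted p = 0.178, 0.1 and 0.0902), CD3E also without the pairs at 18 h (adjusted p = 0.106). The part of these markers in the results was not tested. Of 16 BCL2 family genes 6 were higher and 4 lower. The lower share was near the 22.4% of all genes tested, and the higher share was over their 26.8%. BCL2L11 (BIM), which promotes apoptosis, had 0.38 (SE 0.052, adjusted p = 2.03e-05), and 0.11 without a call on log2(TPM + 1). BAK1 (-0.40) and BID (-0.35), which promote apoptosis as well, were lower in all 15 pairs.

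Targets of receptor signaling were lower in part by genes that are not shared. Of 25 immediate targets of antigen receptor and MAP kinase signals 14 were lower and 1 was higher, 6 and 1 of them shared, and without the pairs at 6 h 8 and without those at 18 h 9 were lower. EGR2, a transcription factor induced by antigen receptors, had -2.55 (SE 0.21, adjusted p = 2.49e-07), with at most 3.44 CPM under AZD8186 and 25.4 CPM under DMSO. It had at most 0.171 CPM in HT and 0.447 CPM in K422. EGR1, its relative, named after its value was seen, had -1.90 and at most 0.966 CPM in TMD8. ETV5 had -1.48, with at most 0.209 CPM in HT, where its pair ratios lay between -1.58 and 1.15. With a mean under 1 CPM in a line, EGR2, EGR1 and ETV5 are not shared genes. The higher gene, named after its value was seen, was BTG2, which restrains proliferation, at 0.85 (SE 0.11, adjusted p = 1.37e-05). Of 36 NF-κB targets 14 were lower and 4 higher, 2 and 2 of them shared. The cytokine genes TNF and LTA were lower, TNF with -2.06 (SE 0.18, adjusted p = 4.09e-07) on the log2 scale and LTA, the shared gene of the pair, with -1.76 (SE 0.23, adjusted p = 1.53e-05). IL10 had -1.73, and -0.78 without a call with equal weight of the 4 lines (adjusted p = 0.578), with a mean of at most 0.0553 CPM in HT and K422. The median of the NF-κB list was -0.45 in OCI-Ly10 and -0.52 in TMD8, and 0.24 in HT and 0.10 in K422. Without the TMD8 pair at 6 h 6 genes of the list were lower and 4 higher, with a median of -0.023, against -0.23 over all pairs. Without the pairs at 18 or 24 h 8 and 8 were lower, and without those at 6 h 6 lower and 7 higher. With equal weight of the lines 9 were lower, with a median of -0.11. Of the 20 genes with at least 5 CPM in 15 or more libraries 4 were lower and 4 higher, with a median of 0.034, on the other side of 0.

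Of 41 PI3K, AKT and mTOR genes 10 were higher and 3 lower, with a median of 0.018. The higher share was near the 26.8% of all genes tested, and the lower share was under their 22.4%. On log2(TPM + 1) 4 were higher and 17 lower, with a median of -0.11. Without the pairs at 18 h 6 were higher. PIK3CB, of the β isoform, had 17.9 to 42.4 CPM under AZD8186 (median 27.9), against 19.6 to 44.3 CPM under DMSO (median 31.5), with -0.067 (SE 0.039, adjusted p = 0.164), and -0.17 with a call on log2(TPM + 1) (adjusted p = 0.0138). PIK3CD, of the δ isoform, had 0.22 (SE 0.063, adjusted p = 0.00665), which lost its call without the pairs at 18 h (adjusted p = 0.0818) and on log2(TPM + 1) (adjusted p = 0.327). PIK3CA, of the α isoform, was shared higher, with 19.2 to 32.8 CPM under AZD8186 (median 25), against 13.0 to 24.7 CPM under DMSO (median 19.7) and 0.37 (SE 0.063, adjusted p = 0.000146), in 14 of 15 pairs. PIK3C3, a PI3K of autophagy, had 0.33, the regulatory subunit PIK3R1 0.34 and RICTOR, of mTOR complex 2, 0.35, which was 0.12 without a call on log2(TPM + 1) (adjusted p = 0.0622). The lower genes were EIF4EBP1, which represses translation (-0.22), the AKT phosphatase PHLPP2 (-0.29) and DDIT4, a brake on mTOR complex 1 (-0.33), which was not shared and lost its call without any 1 pair of HT or K422 (adjusted p between 0.065 and 0.082). PIK3R1, RICTOR, EIF4EBP1, PHLPP2 and DDIT4 were named after their values were seen.

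A shared direction did not mean a shared size. The change differed between the 4 lines in 477 of 1848 shared lower and 426 of 1941 shared higher genes. Over all genes tested it differed in 2956 of 11286, or 26.2%, so shared genes did not differ between lines more often than genes at large. The choice of genes with 1 sign in every line bears on these counts. The number over all genes was 4734 without the pairs at 6 h, 1304 without those at 12 h, 848 without those at 18 h and 1592 without those at 24 h. K422 changed most in 1299 shared lower and 1067 shared higher genes. The median log2 fold change of the lower genes was -0.37 in K422, -0.20 in OCI-Ly10, -0.19 in TMD8 and -0.19 in HT. That of the higher genes was 0.38 in K422, 0.25 in OCI-Ly10, 0.24 in TMD8 and 0.21 in HT. In 350 genes measured in every line, lines were called in opposite directions. UBALD2 had -0.81 in OCI-Ly10 and 1.86 in K422 (adjusted p of the difference 6.8e-11), and MGAT3, a glycosyltransferase, 1.33 in TMD8 and -0.27 in HT. SLC12A2, a chloride carrier, had -0.43 in OCI-Ly10 and 1.04 in K422, and CAMSAP2, a microtubule protein, -0.61 in OCI-Ly10 and 0.83 in K422. These were chosen by this difference and are a description. Over all pairs UBALD2 was not called, but it was without the OCI-Ly10 pair at 24 h (0.64, adjusted p = 0.0491), without the pair as a block (0.52, adjusted p = 0.0488) and with equal weight of the 4 lines (0.49, adjusted p = 2.14e-08). MGAT3 was called with equal weight too (0.40, adjusted p = 4.27e-07).

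By its medians the shared change was larger at 24 h than at 6 h in all lines but TMD8. The lower genes had medians of -0.10, -0.18, -0.27 and -0.29 from 6 to 24 h in OCI-Ly10, -0.15, -0.20, -0.22 and -0.21 in HT and -0.29, -0.38, -0.40 and -0.43 in K422, and of -0.26, -0.22 and -0.096 at 6, 18 and 24 h in TMD8. The higher genes had 0.10, 0.24, 0.33 and 0.34 in OCI-Ly10, 0.16, 0.22, 0.24 and 0.25 in HT, 0.23, 0.37, 0.43 and 0.49 in K422 and 0.26, 0.31 and 0.18 in TMD8. TMD8 was nearest to 0 at 24 h in both. The test of late minus early pairs called 65 of 1848 shared lower and 86 of 1941 shared higher genes, against 294 of 11286 genes tested (2.6%). The late change was the larger in 59 of these lower and 86 of these higher genes. Among the lower genes with the 4 smallest p were TXN, thioredoxin (-0.34 late minus early), PKM, pyruvate kinase (-0.39), and PSMD2 (-0.31). TXN itself had -0.13 (SE 0.051, adjusted p = 0.048) over all pairs and lost this call without any 1 of 9 pairs, of all 4 lines, and without the pairs at 18 or 24 h (adjusted p between 0.0519 and 0.0968 without 1 pair). Among the higher genes the smallest p were those of TNFRSF13C, the BAFF receptor (0.81, adjusted p = 0.00469), TRAPPC6A (0.81), LTB, lymphotoxin β (1.80), and C6orf48, a host gene of small nucleolar RNAs (0.60). These genes were chosen by that test. Over all pairs LTB had 0.99 (SE 0.31, adjusted p = 0.0125) and was not called without the pairs at 18 h (adjusted p = 0.113) or 24 h (adjusted p = 0.167).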

How the data were processed

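RNA of the 4 lines was sequenced in 30 libraries. By the study's methods and the submitters' processing notes, HISAT2 aligned the reads to transcripts of GRCh38.p12 and RSEM estimated counts per gene, in versions not given in the sources used here. For 21112 genes the authors deposited these expected counts, made by RSEM and not normalized. The deposited TPM, which RSEM scales to the library, served as an alternative, and the deposited FPKM were not used here.

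Counts were rounded, filtered with filterByExpr by treatment, TMM-scaled and put to the quasi-likelihood test of edgeR 4.0.16 in R 4.3.3, with the pair as a block. Pairs come from cell line and time point in the labels. For 13 of 15 pairs an AZD8186 library's deviations correlated best with its own DMSO library. p-values were adjusted over all genes tested. CPM are TMM-scaled, pair ratios add a prior count of 2, and genes of few CPM are measured with less precision. No libraries of a line were copies of each other by a chi-square test of their counts.

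Named genes are the 12 per direction with the largest change in the weakest line, the 3 smallest p of each list, PIK3CA, PIK3CB, PIK3CD and MYC, the 4 most opposed between lines and the 4 per direction with the smallest p of late minus early, and exceptions are marked. Some genes that this rule takes are not reported here. Members, lists and motifs were chosen with earlier results of these data known. Of 10 myeloid markers 1 was tested and not called. Alternatives were no block, DESeq2 1.42.0 and its size factors, limma 3.58.1 (voom, and log2(TPM + 1)), other filters, left-out genes, pairs and time points, equal weight of lines, 4 lines as replicates and stricter rules. Procedures were tested on simulated data.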

Additional observations from a re-analysis of the deposited data

Results flagged for a closer look

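Among the 12 genes per direction that changed most in their weakest line, with PECAM1 added, the change differed between the 4 lines in 9. The test was edgeR's quasi-likelihood test with Benjamini-Hochberg adjustment over all genes. Other named genes, such as CDKN1B and UBALD2, passed it too and are not listed here. In the 9 genes the shared direction came with unequal sizes, and their log2 fold changes are given by line. Among lower genes this was SLC17A9 (adjusted p = 0.00242, -0.63 in OCI-Ly10, -1.08 in TMD8, -0.80 in HT and -1.67 in K422). Among higher genes it was YPEL3 (adjusted p = 0.00977, 1.05 in OCI-Ly10, 1.02 in TMD8, 1.34 in HT and 2.29 in K422), TCL1A (adjusted p = 0.00152, 0.92 in OCI-Ly10, 1.0 in TMD8, 1.94 in HT and 4.18 in K422), KLHL24 (adjusted p = 7.15e-06, 0.91 in OCI-Ly10, 1.10 in TMD8, 1.47 in HT and 2.90 in K422) and RNF144B (adjusted p = 0.000191, 0.91 in OCI-Ly10, 0.91 in TMD8, 1.30 in HT and 2.39 in K422). It was further HBP1 (adjusted p = 9.65e-05, 1.02 in OCI-Ly10, 0.88 in TMD8, 1.08 in HT and 2.13 in K422), YPEL5 (adjusted p = 0.00337, 0.90 in OCI-Ly10, 1.10 in TMD8, 0.79 in HT and 2.31 in K422), DYRK1B (adjusted p = 0.00107, 1.05 in OCI-Ly10, 0.84 in TMD8, 0.77 in HT and 2.26 in K422) and PECAM1 (adjusted p = 0.00866, 2.03 in OCI-Ly10, 2.63 in TMD8, 5.35 in HT and 3.53 in K422). K422 had the largest change in 8 of the 9 genes.

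In 4 groups of 4 pairs of a line, 1 log2 ratio stood far from the other 3 by Dixon's criterion, which chance meets in about 1 of 20 groups. Many groups were examined, so chance alone would meet the criterion in some of them, and these 4 are a description. The TFRC ratios in HT from 6 to 24 h were -0.32, -0.62, -0.61 and -0.61, with -0.32 nearest to 0. The SLC39A8 ratios in HT were -0.65, -0.45, -0.41 and -0.41, with -0.65 apart. The PPAN ratios in K422 were -1.02, -0.72, -0.73 and -0.70, with -1.02 apart. The KIAA0040 ratios in K422 were 0.91, 1.52, 1.61 and 1.52, with 0.91 the lowest.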

How the results depend on the processing

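With the 4 cell lines as replicates limma called 0 genes lower and 0 higher, and so 0 and 0 shared genes, although 1309 shared lower and 1484 shared higher genes had an unadjusted p under 0.05. That fit has only 4 values per gene. On log2(TPM + 1) 4377 genes were lower and 1322 higher, 3390 and 630 of them shared. With TPM scaled without ribosomal protein genes, an alternative chosen after seeing the data, 47.6% of the calls were lower. Without the pairing, with line and hour as terms and no replicate block, 2509 genes were lower and 3040 higher, 0 of the named genes lost a call and 1, UBALD2, gained one. A stricter rule left 509 and 421 shared genes (1 sign in all 15 pairs) or 199 and 136 (called in each line). The genes that differed between lines numbered 4734 without 6 h, 1304 without 12 h, 848 without 18 h and 1592 without 24 h, and limma-voom called 457 genes for late minus early pairs, against 294 with edgeR. The cause was not tested.

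Chosen at an adjusted p under 0.01, 93.2% of lower and 93.7% of higher genes kept their direction in OCI-Ly10, 90.9% of lower and 87.0% of higher genes kept their direction in TMD8, 93.3% of lower and 89.0% of higher genes kept their direction in HT and 95.0% of lower and 92.7% of higher genes kept their direction in K422. Without 1 pair 2332 to 2526 genes were lower and 2746 to 2933 higher, 1734 to 1933 and 1780 to 1925 shared, and 2088 to 3819 differed between lines, the most without TMD8 at 6 h. In all, 1313 shared lower and 1299 shared higher genes were shared without any 1 pair as well. Of the named genes, NSA2 (-0.015) and SREBF2 (-0.008) turned on log2(TPM + 1), and GBP2 (0.26) with equal weight of the lines. DESeq2 and limma-voom changed the call of 1 and 0 named genes. Depth limits what genes under 1 CPM show.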
